A study of Mus musculus with 2 samples.

Results

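miRs are short RNA molecules that are cut from the arms of a hairpin precursor and bind to partly complementary messenger RNA, mostly through their seed, the bases 2 to 8 counted from the 5′ end. Sperm carries miRs to the oocyte at fertilization, and several mouse studies have linked sperm miRs to stress or trauma of the father. From such studies 7 miRs were taken here: miR-375, miR-672, miR-193a, miR-204, miR-532, miR-32 and miR-698. The question asked of the data was how much of each was present in sperm of naive WT mice, which is the baseline from which a response to the father's environment would start. In the deposited count tables, 12 of 1886 mature miR entries belonged to these miRs, namely the 5p and the 3p arm of 6 of the 7 miRs. miR-532 was not analysed here.

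The samples were sperm of WT C57BL/6J mice, labelled as naive and 3 months old, in 2 libraries that the methods describe as independent biological replicates. The number of mice behind a library is not given in the sources used here. The names of the deposited tables carry the string POSTTREAT, which the labels do not explain. Sperm swam out of the dissected epididymis and was treated with a hypotonic detergent buffer against epithelial cells before RNA was isolated. No stressed or enriched mice were analysed here, so all values describe 1 condition and no contrast between conditions was tested.

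Replicate 1 held 4049599 miR reads and replicate 2 held 5648067. Levels are given as CPM, the reads of an entry per 1000000 miR reads of its library. At a floor of 3 reads, levels below 0.741 CPM in replicate 1 or below 0.531 CPM in replicate 2 were not distinguished from 0. Intervals are 95% Wilson intervals and, since the reads carry no molecular identifiers, they cover counting error only. The biological coefficient of variation between the libraries was 35.7% over 323 entries. The list for male germ cells had 7 of 11 entries detected and summed to between 1643 and 3908 CPM. On this list miR-34c-5p lay at 2983 and 1314 CPM in the order of the replicates. Also detected were miR-34b, miR-449a and miR-463, with mean levels of 268 CPM (miR-34b-3p), 197 CPM (miR-449a-5p) and 5.72 CPM (miR-463-5p). The other miRs of the list, miR-741, miR-871 and miR-880, which are also known from testis, had no read in either library. Of all 1886 entries, 20.04% were detected, that is, had at least 1 read in each library. Markers of other cells were present too. The list for epithelium, with 11 of 12 entries detected, summed to between 8824 and 10773 CPM. The list for smooth muscle and stroma summed to between 41331 and 62577 CPM with 7 of 8 entries detected, and the list for blood to between 3327 and 7224 CPM with 9 of 11 detected. The list for brain summed to between 218 and 513 CPM with 5 of 10 detected. The summed germ cell, epithelial and brain lists were higher in replicate 1, and the summed muscle and blood lists were higher in replicate 2. Each sum came mostly from 1 entry. In the order of the replicates, miR-143-3p took 40849 and 61894 CPM of the muscle list. For epithelium, miR-141-3p took 8365 and 7077 CPM. The joined entry of miR-486a-5p and miR-486b-5p took 3104 and 6891 CPM of the blood list. Not every entry followed its sum, as miR-205-5p (epithelium) was higher in replicate 2 and miR-223-3p (blood) was lower. Other entries did follow their sums. Lower in replicate 2 were miR-34b-3p and miR-449a-5p (germ cells), miR-200c-3p and miR-429-3p (epithelium) and miR-128-3p (brain). Higher in replicate 2 were miR-145a-5p and miR-214-3p (muscle) and miR-451a and miR-144-3p (blood). The size of each sum is thus mainly that of 1 miR, while its direction was shared by further entries of the list.

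The mature sequences of the more abundant arms of miR-204, miR-672, miR-32 and miR-193a are shown because the seed decides which messenger RNAs a miR can bind and because near-identical sequences decide how far reads can be told apart. They are from RefSeq (GRCm38.p6), 5′ to 3′, with the seed in capitals, where 11 of the 12 entries were matched, and miR-375-3p is given by name. The arms are followed by the mature miRs that have the same seed and were read in these libraries. Of all 1886 entries, 1608 had a matched sequence. Entries without one and joined names were not searched for a seed, so counts and shares per seed leave them out.
miR-204-5p: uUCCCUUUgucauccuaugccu
miR-211-5p: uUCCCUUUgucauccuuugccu
miR-672-5p: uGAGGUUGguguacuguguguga
miR-32-5p: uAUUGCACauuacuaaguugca
miR-25-3p: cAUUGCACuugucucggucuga
miR-92a-3p: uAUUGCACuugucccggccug
miR-92b-3p: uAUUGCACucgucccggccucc
miR-193a-3p: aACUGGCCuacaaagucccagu
miR-193b-3p: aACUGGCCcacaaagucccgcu
The 4 member arms in this list have 4 different seeds. miR-204-5p and miR-211-5p are equal at 21 of 22 positions and differ by A17U, counted from 1 at the 5′ end with the base of miR-204-5p first. Their first 16 bases are the same, while the shortest reads the authors kept had 15 bases, so a read trimmed to 15 or 16 bases fits both. For miR-672-5p, miR-32-5p and miR-193a-3p, no other mature miR of the RefSeq table shared a run of 15 bases.

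The hairpins lie on 5 chromosomes, 1 (miR-375), 4 (miR-32 and miR-698), 11 (miR-193a), 19 (miR-204) and X (miR-672 and miR-532). Positions are from GENCODE M21 on GRCm38, which is also among the builds in the submitters' processing notes. Mir204 lies on the plus strand at chr19:22750605-22750672, within intron 6 or 7 of Trpm3 depending on the transcript, and Trpm3 encodes a cation channel. Mir32 lies on the minus strand at chr4:56895229-56895298 in an intron of Tmem245. Mir672 is on the minus strand at chrX:104116175-104116274 in intron 1 of Nexmif. These 3 hairpins overlap no exon of any transcript that spans them. Mir375 lies between genes on the minus strand at chr1:74900658-74900721, with 7514 bases to Cryba2 and 1349 bases to Cfap65. Mir193a lies between genes on the plus strand at chr11:79711969-79712034, 14365 bases from Mir365-2. Mir698 lies at chr4:124743781-124743889 on the plus strand, and 16 of its 109 bases fall in an exon of Inpp5b in each of the 4 transcripts that span it. Mir532 lies on the minus strand at chrX:7248402-7248497 in an intron of Clcn5, 345 bases from Mir188, in a group of hairpins that also holds Mir362, Mir500 and Mir501.

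Together the 12 entries took 14568 reads in replicate 1 and 14881 in replicate 2, or 0.312% ± 0.0681 (SD, n = 2 libraries) of the miR reads. Most of these miR reads were on miR-10b-5p and miR-10a-5p, with mean levels of 547422 and 244351 CPM, which keeps the share of other entries low. At least 1 read in each library was counted on 6 of the 12 entries, while 20.04% of all 1886 entries met this rule. The 6 include miR-32-3p, whose 1 read in replicate 2 (0.177 CPM) lay below the floor of 3 reads. With at least 10 reads in each library 4 of the 12 remained, against 12.9% of all entries. As the miRs were listed because earlier work had found them in sperm, nothing is read from the higher share. A further 2 entries had reads in 1 library only and 4 had none in either. The levels fell into 3 ranges. miR-375-3p and miR-204-5p lay at 1123 CPM or above in both libraries and took 98.1% and 98.6% of the members' reads. miR-672-5p and miR-32-5p lay between 9.03 and 46.9 CPM, and the remaining entries had at most 4 reads in a library.

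**Figure D1:**
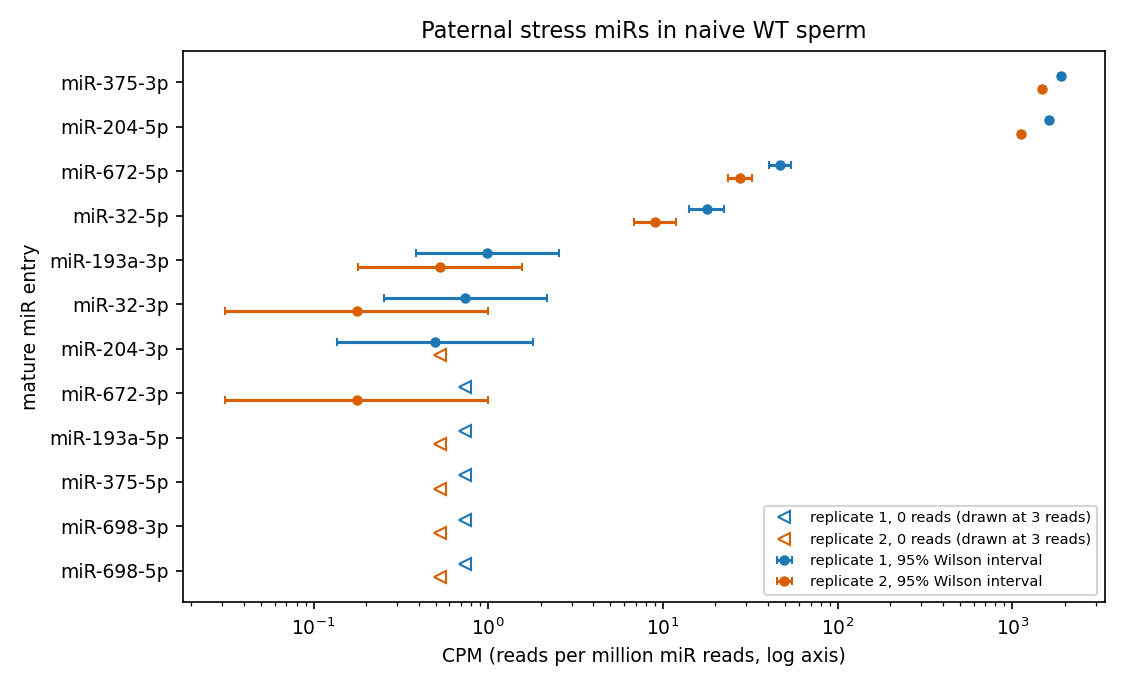
CPM of the 12 entries in each library on a log axis, with points for the value, bars for the 95% Wilson interval and open triangles at the level of 3 reads where no read was counted. miR-375-3p and miR-204-5p sit between 1123 and 1906 CPM, and the 4 lowest entries had no read in either.

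miR-375 is best known from pancreatic islets, where it limits insulin secretion, and from other neuroendocrine cells. miR-375-3p had 7717 reads in replicate 1, or 1906 CPM (1864 to 1949). In replicate 2, 8326 reads gave 1474 CPM (1443 to 1506). Its mean was 1689.9 ± 305 CPM (SD, n = 2), which ranked 23rd among the 378 entries detected in both libraries. It was thus the most abundant of the 12 entries in each library. miR-375-5p had no read in either library, so that at least 99.95% of the reads of miR-375 fell on the 3p arm by the lower bound of the interval in each library. A list of 5 other miRs known from islets, pancreas and neuroendocrine cells had 3 of 11 entries detected, against 20.04% of all 1886 entries. On it, miR-7b, miR-216a and miR-217 had no read. This list summed to 623 CPM in replicate 1 and 212 CPM in replicate 2, of which miR-184-3p made up 616 and 208 CPM. What part other cells had in the level of miR-375-3p was not tested. The entry outside the members with the most similar level was miR-125b-5p, with 1933 CPM in replicate 1 and 1582 CPM in replicate 2, at a distance of 0.10 on the log2(CPM + 1) scale.

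miR-204 is known for the differentiation of the retinal pigment epithelium and is made from an intron of the Trpm3 gene. miR-204-5p had 6580 reads in replicate 1, or 1625 CPM (1586 to 1665). In replicate 2, 6343 reads gave 1123 CPM (1096 to 1151). Its mean was 1374 ± 355 CPM (SD, n = 2), at rank 27. miR-375-3p was the higher of both miRs within each library, by a ratio of 1.17 in replicate 1 and 1.31 in replicate 2, and the Wilson intervals of both miRs did not overlap within either library. Across the libraries their ranges overlapped, as miR-204-5p in replicate 1 lay above miR-375-3p in replicate 2. With 2 libraries the difference was not tested. The 3p arm, miR-204-3p, had 2 reads in replicate 1 and none in replicate 2. The nearest entry by level was miR-100-5p with 1524 and 1351 CPM, at a distance of 0.28. The hairpin of miR-204 is shown to give the place of the arm that was read, with miR-204-5p in capitals (bases 6 to 27 of 68) and miR-204-3p at bases 45 to 65.
Mir204: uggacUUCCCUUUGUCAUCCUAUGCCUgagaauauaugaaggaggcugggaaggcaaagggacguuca

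The paralog of miR-204 is miR-211, which is known from pigment cells. miR-211-5p had 18 reads in replicate 1, or 4.44 CPM, and 2 reads in replicate 2, or 0.354 CPM. Of the reads on entries with this seed, 99.7% (99.6% to 99.8%) in replicate 1 and 99.97% (99.89% to 99.99%) in replicate 2 were counted on miR-204-5p, and the third listed miR with the seed, miR-7670-3p, had no read. miR-211-3p had no read either. How reads that fit both paralogs were counted is not given in the sources used here, so the few reads of miR-211-5p are uncertain.

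miR-672 lies on the X chromosome and is among the miRs linked to early life trauma of the father. miR-672-5p had 190 reads in replicate 1, or 46.9 CPM (40.7 to 54.1). In replicate 2, 156 reads gave 27.6 CPM (23.6 to 32.3). Its mean was 37.3 ± 13.6 CPM (SD, n = 2), at rank 113. It lay below miR-204-5p by a factor of 34.6 in replicate 1 and 40.7 in replicate 2, with ranges that did not overlap. miR-672-3p had no read in replicate 1 and 1 read in replicate 2. The only other listed mature miR with the seed of miR-672-5p, miR-377-5p, had no read in either library. Among the entries searched for a seed, all reads on this seed were thus counted on miR-672-5p. The nearest entry by level was miR-423-5p with 53.6 and 28.9 CPM, at a distance of 0.20.

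miR-32 belongs to a large seed family with miR-25, miR-92a, miR-92b, miR-363 and miR-367. miR-32-5p had 72 reads in replicate 1, or 17.8 CPM (14.1 to 22.4). In replicate 2, 51 reads gave 9.03 CPM (6.87 to 11.9). Its mean was 13.4 ± 6.19 CPM (SD, n = 2), at rank 151. It lay below miR-672-5p in both libraries, by a factor of 2.64 and 3.06, and the ranges did not overlap. miR-32-3p had 3 reads in replicate 1 and 1 read in replicate 2. The nearest entry by level was miR-223-3p, a miR of myeloid blood cells, with 15.8 and 9.74 CPM at a distance of 0.19. In the hairpin, miR-32-5p is in capitals (bases 6 to 27 of 70), and miR-32-3p covers bases 47 to 67.
Mir32: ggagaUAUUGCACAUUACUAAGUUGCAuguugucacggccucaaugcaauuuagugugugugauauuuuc

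miR-32-5p contributed little to the pool of its seed. Entries with this seed took 7187 and 4688 reads in the order of the replicates. miR-32-5p held 1.002% (0.796% to 1.26%) and 1.09% (0.828% to 1.43%) of them. miR-25-3p was the main member with 82.6% (81.8% to 83.5%) and 84.1% (83.0% to 85.1%), or 1467 and 698 CPM. miR-92a-3p held 10.2% and 9.66%, and miR-92b-3p 6.18% and 5.14%. miR-363-3p and miR-367-3p had no read. The share of miR-32-5p had overlapping intervals in the 2 libraries although its CPM did not. All 4 family members that were read had a lower CPM in replicate 2, as did 71.7% of the 244 entries with at least 10 reads in each library. Beyond the seed the sequences differ, since miR-32-5p equals miR-25-3p at 13 of 22 positions and miR-92a-3p at 11 of 21, with no shared run longer than 8 bases.

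**Figure D2:**
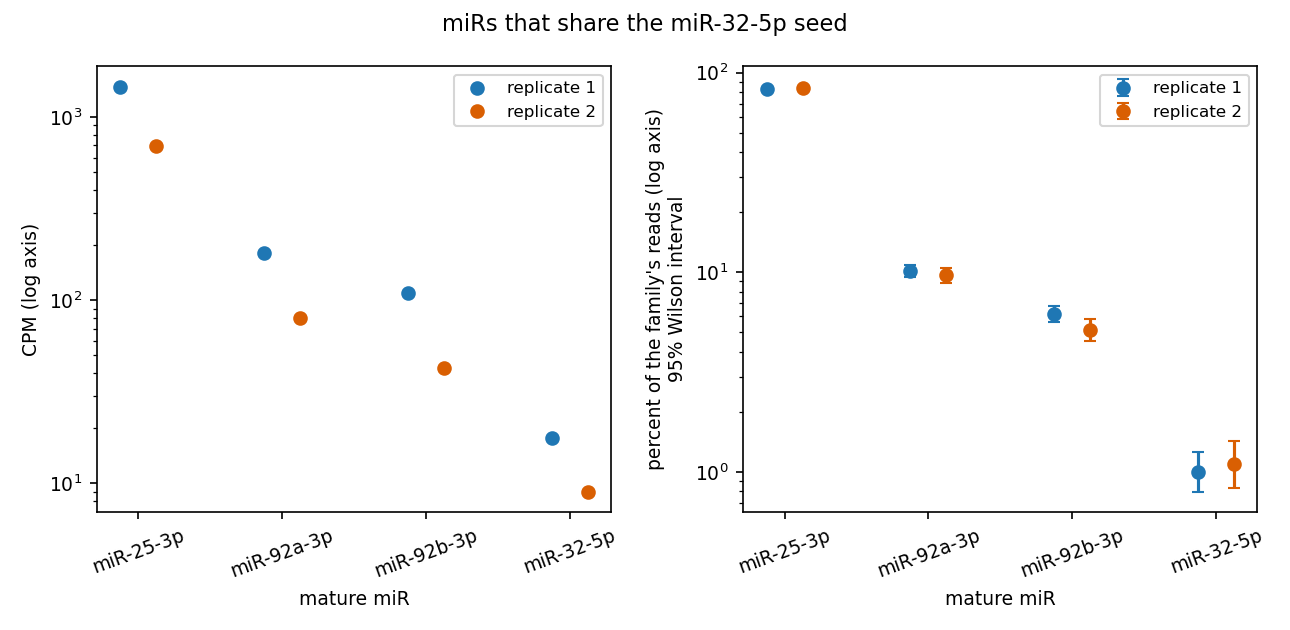
Level in CPM (left) and share of the reads of the seed family with its 95% Wilson interval (right) for the 4 read miRs that share the seed of miR-32-5p, each on a log axis with 1 point per library. miR-32-5p lies lowest in both panels, at 17.8 and 9.03 CPM, and its share is close to 1% in both libraries.

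miR-193a was at the limit of the depth. miR-193a-3p had 4 reads in replicate 1, or 0.988 CPM (0.384 to 2.54). In replicate 2, 3 reads gave 0.531 CPM (0.181 to 1.56). miR-193a-5p had no read in either library. Its paralog miR-193b-3p, which has the same seed and is equal at 19 of 22 positions, with U9C, A20G and G21C, had no read in replicate 1 and 7 reads in replicate 2. With so few reads, no order of the paralogs was detectable. miR-365-3p, whose hairpin Mir365-2 neighbours Mir193a, had 18 reads in replicate 1 and 15 in replicate 2, or 4.44 and 2.66 CPM. The 3p arm of miR-365 is also made by a second locus, Mir365-1, and its reads cannot be assigned to either. The 5p arms of miR-365 had no read.

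miR-698 had no read on either arm in either library, which at the floor of 3 reads allows a level of up to 0.741 CPM in replicate 1 and 0.531 CPM in replicate 2, and by the upper bound of the Wilson interval up to 0.949 and 0.680 CPM. It was the 1 miR of the 6 with no read at all. The sequences of 4 arms without a read are shown with the seed in capitals, because their absence at this depth is part of the baseline.
miR-698-5p: uGUGGGUGggacagggauguu
miR-698-3p: cAUUCUCGuuuccuucccu
miR-193a-5p: uGGGUCUUugcgggcaagauga
miR-375-5p: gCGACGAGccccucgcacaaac
Here 1338 of the 1886 entries had no read in either library.

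The neighbours of Mir532 on the X chromosome were read at low levels. miR-501-3p had 180 reads in replicate 1, or 44.4 CPM, and 193 reads in replicate 2, or 34.2 CPM. miR-362-3p had 8 and 11 reads, miR-362-5p had 2 in each library, and miR-500-3p had 3 and 4. miR-188-5p, miR-188-3p, miR-500-5p and miR-501-5p had no read in either library. In this group miR-501-3p thus lay far above the others in both libraries, at a level close to that of miR-672-5p. miR-660 was not analysed here.

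Nearly all reads of each member that was read fell on 1 arm, which was 5p for miR-204, miR-672 and miR-32 and 3p for miR-375 and miR-193a. For miR-193a these were only 4 and 3 reads in the order of the replicates. The lower bounds of its 3p share were 51.0% and 43.9%, too low to call an arm preference. miR-32 had the largest share on the other arm, as 96.0% (88.9% to 98.6%) of 75 reads in replicate 1 and 98.1% (89.9% to 99.7%) of 52 reads in replicate 2 were miR-32-5p. For miR-672 the 5p arm took 100% of 190 reads and 99.4% of 157 reads. Such shares are common in these libraries. Among 119 miR names that had both arms listed and 100 reads or more over both libraries, the median share of the more abundant arm was 99.4%, and 74.8% of the names had at least 95% of their reads on 1 arm.

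**Figure D3:**
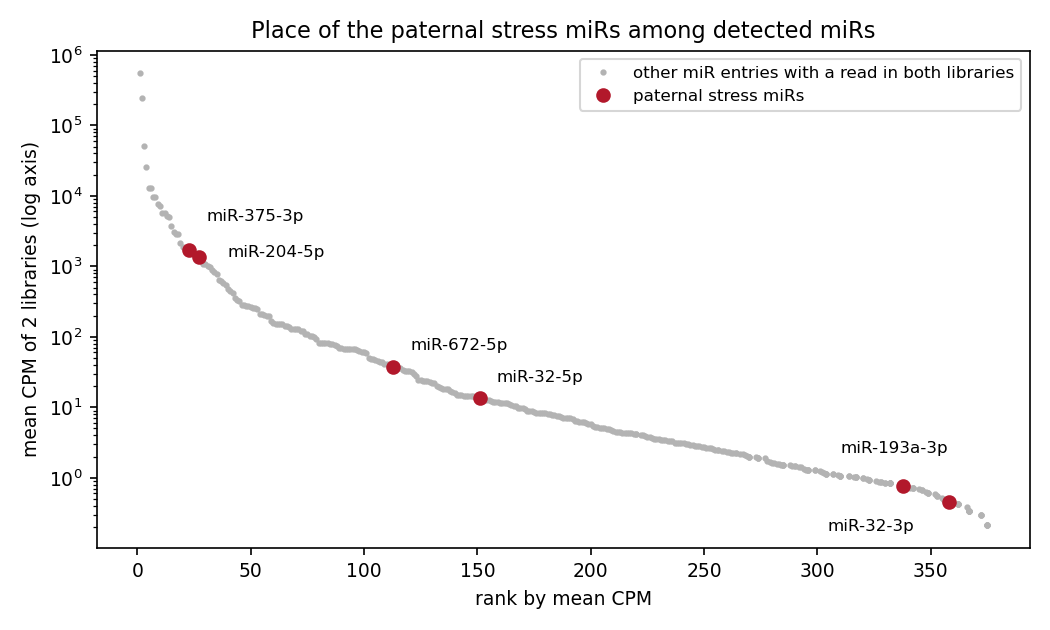
Mean CPM of the 378 entries with a read in both libraries on a log axis, ordered by rank, with the 6 detected entries of the paternal stress miRs in red. They span the range from rank 23 (miR-375-3p) to rank 358 (miR-32-3p).

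The 4 members with at least 10 reads in each library all had a lower CPM in replicate 2. The log2 ratio of replicate 2 to replicate 1, computed with a pseudocount of 1 CPM, was -0.37 for miR-375-3p, -0.53 for miR-204-5p, -0.74 for miR-672-5p and -0.90 for miR-32-5p. Most entries had the same sign, since 71.7% of the 244 entries with at least 10 reads in each library were lower in replicate 2 and their median was -0.30. TMM scaling moved that median by 0.29, and 50.0% of the entries were then lower in replicate 2. Under TMM the members lay at -0.04, -0.20, -0.42 and -0.60 in the same order. miR-375-3p thus stood close to the median of all entries under both scalings. By the size of the log2 CPM ratio miR-32-5p ranked 61st and miR-375-3p 134th of the 244. The interquartile range of the entries was from -0.75 to 0.04 in CPM, which held miR-375-3p, miR-204-5p and miR-672-5p but not miR-32-5p. The Wilson intervals of the libraries did not overlap for any of the 4. Over both libraries each of these has more than 100 reads, and the intervals failed to overlap for 64.8% of all entries with that many reads and for 41.8% of all entries with 10 or more. The ratios between members within a library do not depend on the scaling. The order from miR-375-3p over miR-204-5p and miR-672-5p to miR-32-5p was the same in both libraries. The libraries are replicates of 1 condition, and the part of the marker lists for other cells in these differences was not tested.

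**Figure D4:**
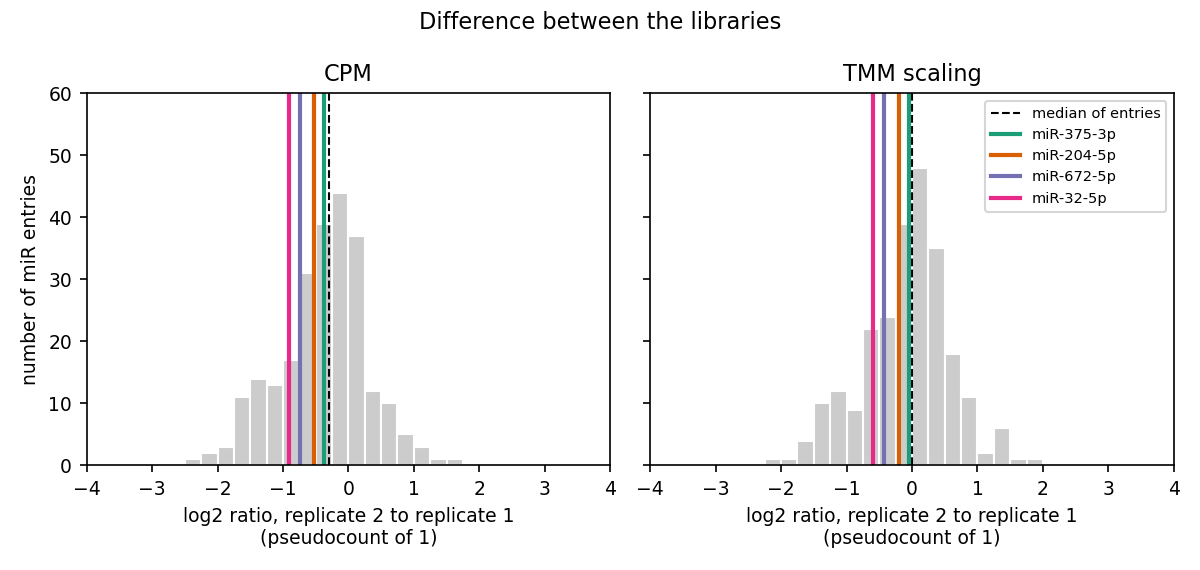
Histogram of the log2 ratio of replicate 2 to replicate 1 (pseudocount of 1) for 244 entries with at least 10 reads in each library, in CPM (left) and after TMM scaling (right), with coloured lines for the 4 members and a dashed line for the median of the entries. All 4 members lie below the median in both panels, with miR-375-3p nearest to it and miR-32-5p farthest.

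Other miRs linked to paternal stress, miR-29c, miR-30a, miR-30c, miR-200b and miR-466c, had 8 of 11 entries detected, against 20.04% of all 1886 entries. These miRs, too, were listed from earlier work, so nothing is read from the higher share. miR-30a-5p was the most abundant, with 9834 CPM in replicate 1 and 9300 CPM in replicate 2, above every member in both libraries, whereas miR-466c-5p had 6 reads in replicate 1 and none in replicate 2.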

How the data were processed

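Small RNA of naive WT sperm was sequenced in 2 libraries of 1 group. The authors trimmed bases of low quality and 3′ adapters (cutadapt 1.8.1), kept reads of at least 15 bases and mapped them with bowtie 1.1.2, first without mismatches to miR and piRNA sequences. The submitters' processing notes also name HTSeq and the builds mm10 and GRCm38. The annotation release, the step that gave the counts and the handling of reads that fit several miRs are not given in the sources used here. The authors deposited whole-number counts of reads per mature miR, not normalized and not pooled. A mapping without mismatches would lose miRs with modified ends. Reads without a miR, 38.1% and 26.3% of those listed, were left out of CPM.

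Entries were matched by name, split where names are joined (12 entries). Wilson 95% intervals and 3 reads as the smallest level were used, and an entry with a read in both libraries was called detected. edgeR 4.0.16 gave TMM factors and the biological coefficient of variation from an intercept-only design over entries with 10 or more reads over both libraries. DESeq2 1.42.0 gave size factors (R 4.3.3, Python 3.11.15). No test between conditions was possible. The dispersion, TMM and intervals were checked on simulated data. Named miRs were all arms of the 7 miRs, the entry nearest in level, read miRs with the same seed, genomic neighbours, paralogs and other stress miRs. Members and lists, the marker lists included, were chosen with earlier results of these data known. Alternatives were read minimums, merged arms, thinning, TMM, DESeq2 scaling, other denominators, another pseudocount, other filters and each library alone.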

Additional observations from a re-analysis of the deposited data

How the results depend on the processing

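The number of member entries detected was 6. It was 3 with at least 10 CPM in each library and between 4 and 7 under the other minimums, with merged arms, after thinning and in each library alone. The summed level of the entries was 3116 CPM, 2083 CPM of all reads in the tables and 14881 CPM of miR reads without miR-10a-5p and miR-10b-5p. Both only change the denominator. In each library alone it was between 2635 and 3597 CPM, and with 2 libraries such values always lie within 1 SD of their mean, so they show no stability. The coefficient of variation lay between 32.1% and 40.2%. No log2 ratio between the libraries changed sign under TMM, DESeq2 size factors or a pseudocount of 0.1 CPM. Their size did depend on the scaling, as all were smaller under TMM and DESeq2 size factors. The ratio of miR-375-3p went from -0.37 to -0.04 under TMM and -0.03 under DESeq2 size factors, close to no difference. For miR-193a, miR-698 and the less abundant arms, all with at most 4 reads in a library, the depth limits what can be seen. No paired analysis was possible because there is 1 group.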
